A study of Mus musculus with 6 samples.

Results

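The genes described here were 9 phospholipase A2 enzymes (Pla2g4a, Pla2g4f, Pla2g5, Pla2g6, Pla2g7, Pla2g10, Pla2g12a, Pla2g12b and Pla2g15) and the phospholipase A2 receptor Pla2r1. They were picked by gene symbol, as secreted and intracellular members of the family together with the receptor, with earlier results of these data known. They made up 10 of the 57127 genes in the count table. The table came from RNA sequencing of the whole epididymis of adult C57BL/6 mice, with 3 libraries from wild-type animals (WT) and 3 from animals without occludin (Ocln-/-, here Ocln-KO). Occludin is a tight junction protein, and the Ocln-KO animals, born to heterozygous parents, lacked it in all tissues rather than in the epididymal epithelium alone. The comparison asks which genes of phospholipid hydrolysis differed in level between the 2 genotypes.

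Phospholipases A2 cut the fatty acid from the middle carbon of a membrane phospholipid and leave a free fatty acid, often arachidonic acid, and a lysophospholipid. Arachidonic acid feeds the cyclooxygenases and lipoxygenases that make prostaglandins and leukotrienes, and lysophospholipids are either reacylated or turned into signalling lipids. In the epididymis, where sperm mature in a lumen closed by epithelial tight junctions, the lipids of the sperm membrane are remodelled during transit. The family holds small secreted enzymes, cytosolic and calcium-independent enzymes, a lysosomal enzyme and an enzyme that hydrolyses platelet-activating factor. The receptor, a large membrane lectin related to the mannose receptor, binds secreted phospholipases A2.

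Of the 10 genes, 6 had enough counts to be tested, and 3 of those passed the test between genotypes, 1 higher and 2 lower. Over all genes tested, 3.91% were higher and 5.04% lower. None of the 3 passed when the replicate number was fitted as a block, or without WT replicate 1 or 3. Pla2r1 and the secreted enzyme Pla2g12a fell in Ocln-KO, to 0.482 and 0.58 of the WT level. The cytosolic enzyme Pla2g4a rose to 1.81 times the WT level. Pla2g6, Pla2g7 and Pla2g15 did not pass the test, and Pla2g4f, Pla2g5, Pla2g10 and Pla2g12b were at or near 0 in all 6 libraries.

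The 6 libraries held between 30646424 and 38870780 counts. Values are given as CPM, the counts scaled to a common library size with TMM factors, on which scale 1 count was worth between 0.0267 and 0.0314 CPM. Occludin itself measured 85.9, 78.8 and 91.8 CPM in WT against 15.2, 15.4 and 14.9 CPM in Ocln-KO, so the labels and the targeted gene went together (log2 fold change -2.50 ± 0.09 SE, adjusted p = 0.000108, quasi-likelihood test of edgeR, Benjamini-Hochberg adjustment over 19691 tested genes). The Ocln-KO libraries were less alike than the WT libraries: on the first principal component, which held 47.2% of the variance, WT lay between -52.8 and -37 and Ocln-KO lay at 17.7, 29.1 and 86.3, with replicate 3 apart from the others. Tissue markers did not all match an epididymis. Crisp1 (4439 to 16770 CPM) and Adam7 (5071 to 9304 CPM), both known from epididymal epithelium, were abundant. In contrast, Lcn8 was low at 0.781 to 2.3 CPM, and Lcn9, Cst11 and Adam28 were at 0.157 CPM or less in every library. Lcn8 and these last 3 are also known as epididymal genes. A count near 0 in this table was therefore not read as a gene that is silent in the tissue, and the cause was not tested. In whole tissue, fewer cells of a type and less RNA per cell cannot be told apart. The 3 libraries per genotype came from separate mice or from pooled RNA, the sources being unclear on this, and p-values measure the spread between these libraries.

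Pla2g12a encodes a small secreted phospholipase A2 of group XII and lies at chr3:129878606-129895825 on the plus strand (GRCm38.p6). It measured 102.9, 93.6 and 103 CPM in WT, against 69.7, 56.3 and 47.8 CPM in Ocln-KO, from 1615 to 3849 counts per library. Every WT library was above every Ocln-KO library. The means were 99.8 ± 5.4 CPM and 57.9 ± 11 CPM (SD, n = 3 each), and the log2 fold change was -0.78 ± 0.14 SE with a 95% interval from -1.11 to -0.46 (adjusted p = 0.0228, quasi-likelihood test of edgeR, Benjamini-Hochberg adjustment). The adjusted p rose to 0.103, 0.061 and 0.0942 without WT replicate 1, 2 or 3 and to 0.0631 without Ocln-KO replicate 2 in the same edgeR fit, while the log2 fold change stayed between -0.93 and -0.67 over the 6 fits that left out 1 library.

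Pla2r1, the receptor, lies at chr2:60417543-60553326 on the minus strand, and the exons of its transcripts merge into 29 blocks. It measured 38.6, 35.0 and 39.8 CPM in WT, against 15.2, 19.0 and 20.4 CPM in Ocln-KO. The genotypes were well apart, with a lowest WT library of 35.0 CPM and a highest Ocln-KO library of 20.4 CPM. The means were 37.8 ± 2.48 CPM and 18.2 ± 2.73 CPM (SD, n = 3 each), and the log2 fold change was -1.05 ± 0.13 SE with a 95% interval from -1.36 to -0.75 (adjusted p = 0.0108, quasi-likelihood test of edgeR, Benjamini-Hochberg adjustment). It was the only tested member that also passed a fold of 2 in this fit. Without WT replicate 1 or 3 the adjusted p of the edgeR fit rose to 0.0708 and 0.0648. Of its exon sequence, 299 bases (3.11%) are shared with the antisense gene Gm13583, and whether the counting used strand is not given in the sources used here.

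Pla2g4a encodes the cytosolic phospholipase A2 that is activated by calcium and prefers arachidonic acid. The gene lies at chr1:149829618-149961290 on the minus strand. It measured 20.5, 19.8 and 17.6 CPM in WT, against 33.9, 28.8 and 42.4 CPM in Ocln-KO. All 3 Ocln-KO libraries were above all 3 WT libraries, with replicate 3 highest. The means were 19.3 ± 1.53 CPM and 35.1 ± 6.89 CPM (SD, n = 3 each), and the log2 fold change was 0.86 ± 0.15 SE with a 95% interval from 0.51 to 1.21 (adjusted p = 0.0228, quasi-likelihood test of edgeR, Benjamini-Hochberg adjustment). Leaving out WT replicate 1, 2 or 3 raised the adjusted p of the edgeR fit to 0.0976, 0.0698 and 0.0982.

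**Figure D1:**
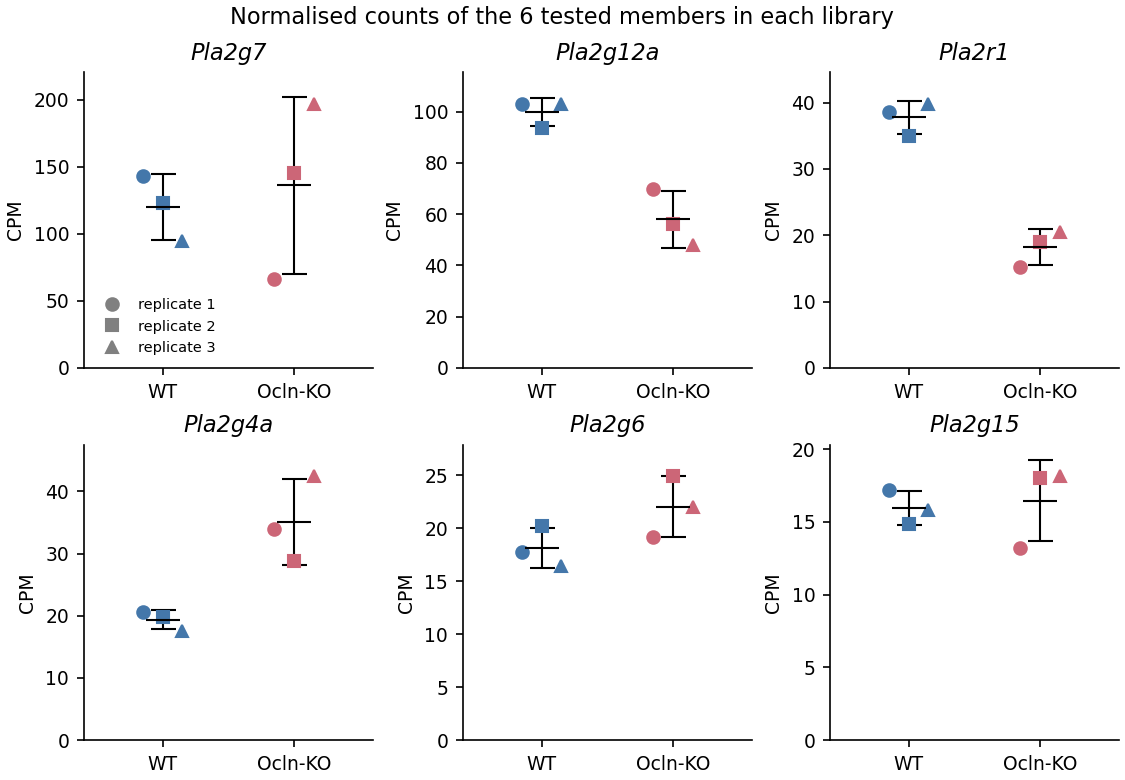
Normalised counts (CPM, linear axis from 0) of the 6 tested members in each library, with WT in blue, Ocln-KO in red, one symbol per replicate number, and bars for the mean ± SD of 3 libraries. Pla2g12a and Pla2r1 lay lower and Pla2g4a higher in every Ocln-KO library, and Pla2g7 ran from 66.1 to 197 CPM within Ocln-KO.

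The 1 member that rose and the 2 that fell, out of 6 tested, stand beside 3.91% of all genes tested that rose and 5.04% that fell. With scaling by total counts alone, the split over all genes turned from 770 higher and 992 lower to 1175 higher and 674 lower, and the same 3 members passed, each in the same direction. Pla2r1 was 1 of 6 past both the adjusted p and the 2-fold limit, which 3.19% of all genes tested passed. Its log2 fold change was under that limit with scaling by total counts alone (-0.97) and without Ocln-KO replicate 1 (-0.93). For these 3 members no library of one genotype fell within the range of the other, with Ocln-KO above for 1 (16.9% of all genes tested) and WT above for 2 (19.4%). The median log2 fold change of the 6 tested members was 0.11 and that of all genes tested was 0.01.

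**Figure D2:**
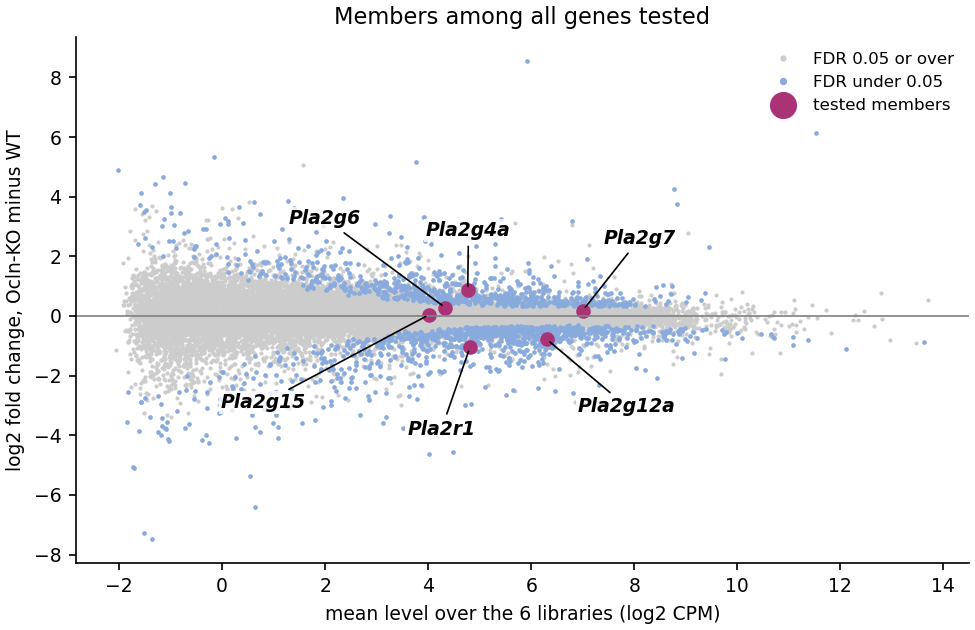
Log2 fold change (Ocln-KO minus WT) against mean level (log2 CPM) for all 19691 genes tested, with genes of adjusted p under 0.05 in light blue, the rest in grey and the 6 tested members in purple. Pla2g4a lies among the genes that rose, Pla2r1 and Pla2g12a among those that fell, and the other 3 members in the grey band near 0.

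The upstream sequences of the 3 genes that changed are shown because these members differed in opposite directions. They are the 250 bases before a RefSeq transcript start (GRCm38.p6), written 5′ to 3′ on the strand of the gene, with motif matches on either strand in capitals. The motifs searched were the GC box GGGCGG, the CCAAT box CCAAT, the TATA box TATAAA, the androgen receptor half-site AGAACA and the cyclic AMP response element half-site TGACG. The windows lie at chr3:129880934-129881183 (plus strand) for Pla2g12a, at chr2:60553309-60553558 (minus strand) for Pla2r1 and at chr1:149961291-149961540 (minus strand) for the outer of the 2 listed starts of Pla2g4a.
Pla2g12a: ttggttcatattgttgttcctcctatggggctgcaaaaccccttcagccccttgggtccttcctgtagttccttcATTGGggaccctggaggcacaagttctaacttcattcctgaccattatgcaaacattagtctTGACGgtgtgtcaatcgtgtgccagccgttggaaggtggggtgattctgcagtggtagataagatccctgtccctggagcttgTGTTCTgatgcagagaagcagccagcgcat
Pla2r1: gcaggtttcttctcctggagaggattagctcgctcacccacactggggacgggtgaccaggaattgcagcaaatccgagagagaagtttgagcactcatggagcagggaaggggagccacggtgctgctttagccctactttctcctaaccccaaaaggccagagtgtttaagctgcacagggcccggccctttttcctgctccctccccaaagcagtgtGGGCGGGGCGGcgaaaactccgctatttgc
Pla2g4a: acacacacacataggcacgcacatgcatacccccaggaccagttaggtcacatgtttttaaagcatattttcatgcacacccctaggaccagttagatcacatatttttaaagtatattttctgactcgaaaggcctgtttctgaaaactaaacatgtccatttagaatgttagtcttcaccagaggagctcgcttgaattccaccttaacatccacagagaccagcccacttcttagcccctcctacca

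The listed start of Pla2g12a, which is not the first base of the locus, lies 2578 bases inside the annotated gene. Its window also lies inside the gene and holds none of the gene's exon bases. It had 1 CCAAT box, 1 cyclic AMP response element half-site and 1 androgen receptor half-site, beginning 175, 113 and 30 bases before the start. The Pla2r1 window had 2 overlapping GC boxes, the nearer beginning 25 bases before the start. The Pla2g4a window printed here matched none of the 5 motifs. The other listed start of Pla2g4a lies 38851 bases inside the gene. Its window (chr1:149922440-149922689) held 1 TATA box and 1 androgen receptor half-site, beginning 200 and 221 bases before that start. Among the 32851 windows of the same length listed for all genes, 32.7% held a GC box, 33.8% a CCAAT box, 12.4% a TATA box, 16.1% the androgen receptor half-site and 17.8% the cyclic AMP response element half-site. GC content was 50.8% for Pla2g12a, 57.6% for Pla2r1 and 43.2% for Pla2g4a, against a median of 52.4% and quartiles of 45.2% and 61.2% over all windows. All 10 members were matched in this table, in 12 windows.

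Pla2g7 encodes the secreted enzyme that inactivates platelet-activating factor, and lies at chr17:43567994-43612202 on the plus strand. It measured 142.9, 123 and 94.3 CPM in WT, against 66.1, 145 and 197 CPM in Ocln-KO. Ocln-KO held both the lowest and the highest library, so the groups overlapped over the whole WT range. The log2 fold change was 0.18 ± 0.35 SE with a 95% interval from -0.63 to 0.99 (adjusted p = 0.776, quasi-likelihood test of edgeR, Benjamini-Hochberg adjustment), the widest interval of the 6. Without Ocln-KO replicate 3 the estimate turned to -0.18. Pla2g7 shares 319 bases of exon (10.98%) with the antisense gene 1700071M16Rik.

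Pla2g6, the calcium-independent phospholipase A2, lies at chr15:79286228-79328385 on the minus strand. It measured 17.7, 20.3 and 16.5 CPM in WT, against 19.1, 24.9 and 22 CPM in Ocln-KO. WT replicate 2 lay above Ocln-KO replicate 1, and the other 2 Ocln-KO libraries lay above all WT libraries. The log2 fold change was 0.28 ± 0.14 SE with a 95% interval from -0.04 to 0.60 (adjusted p = 0.222, quasi-likelihood test of edgeR, Benjamini-Hochberg adjustment).

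Pla2g15, the lysosomal phospholipase A2, lies at chr8:106150354-106164718 on the plus strand. It measured 17.2, 14.8 and 15.8 CPM in WT, against 13.2, 18 and 18.1 CPM in Ocln-KO. As with Pla2g7, Ocln-KO replicate 1 was the lowest of all libraries and the other 2 Ocln-KO libraries were the highest. The log2 fold change was 0.05 ± 0.15 SE with a 95% interval from -0.31 to 0.40 (adjusted p = 0.872, quasi-likelihood test of edgeR, Benjamini-Hochberg adjustment). The sign of this small difference turned without WT replicate 2 (-0.0044), Ocln-KO replicate 2 (-0.02) or Ocln-KO replicate 3 (-0.03).

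**Figure D3:**
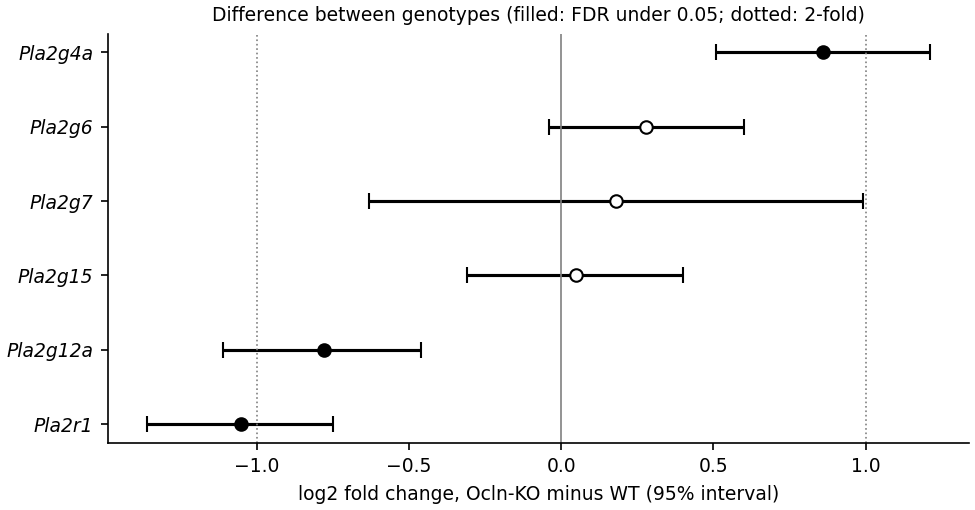
Log2 fold change (Ocln-KO minus WT) of the 6 tested members with 95% intervals, filled where the adjusted p was under 0.05, with dotted lines at a fold of 2 in either direction. The intervals of Pla2g4a, Pla2g12a and Pla2r1 leave out 0, and that of Pla2g7 is the widest.

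The 4 remaining members had too few counts to be tested. Pla2g4f, a further cytosolic enzyme, had 4, 5 and 0 counts in WT and 0, 17 and 13 in Ocln-KO. The secreted enzyme Pla2g5 had 1, 9 and 0 counts in WT and 0, 1 and 0 in Ocln-KO. Pla2g10, also secreted, had 0, 0 and 7 counts in WT and 0, 2 and 0 in Ocln-KO. Pla2g12b, a relative of Pla2g12a known to lack catalytic activity, had 6, 0 and 1 counts in WT and 0, 1 and 0 in Ocln-KO. Each of the 4 was at 0 in at least 1 library of both genotypes, and a count of 0 allows up to 3 counts, or 0.0802 to 0.0942 CPM depending on the library, for counting error only. When the filter on low counts was dropped, none of the 4 passed (adjusted p between 0.435 and 0.674, quasi-likelihood test of edgeR, Benjamini-Hochberg adjustment over 32046 genes), so no difference was detectable at this depth. Pla2g4f lies at chr2:120299952-120314165, Pla2g5 at chr4:138799247-138863562, Pla2g10 at chr16:13715057-13731094 and Pla2g12b at chr10:59403420-59421976.

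To compare levels between genes, CPM was divided by the length of the merged exons of each gene in kilobases. On this scale (CPM per kb) Pla2g7 had the highest mean in WT with 41.3 ± 8.41, followed by Pla2g12a with 27.1 ± 1.47 (SD, n = 3 each). The WT libraries of these 2 genes did not overlap. Pla2g15 (5.29 ± 0.389), Pla2r1 (3.93 ± 0.258), Pla2g6 (3.34 ± 0.353) and Pla2g4a (3.02 ± 0.239) followed at much lower CPM per kb. The ranges of Pla2r1 and Pla2g6, and those of Pla2g6 and Pla2g4a, overlapped, so these neighbours were not told apart by their spread. In Ocln-KO the order of mean CPM per kb was Pla2g7 (46.8 ± 22.7), Pla2g12a (15.7 ± 3), Pla2g4a (5.48 ± 1.08), Pla2g15 (5.46 ± 0.932), Pla2g6 (4.05 ± 0.532) and Pla2r1 (1.89 ± 0.284). Pla2g4a, Pla2g15 and Pla2g6 overlapped in Ocln-KO. These orders and overlaps depend on the gene length used. The merged exons of Pla2g4a came to 6391 bases, against 3453 in its longest transcript. For Pla2g15 these lengths were 3013 and 2706 bases, and for Pla2g6 they were 5434 and 3365. With the longest transcript Pla2g4a would stand higher among these genes, and the order was not redone on that scale. The 4 untested members reached at most 0.167 CPM per kb in any library.

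The CPM per kb of the 9 enzymes summed to 89.5, 79.6 and 71.6 in WT and 54.9, 80.6 and 97.5 in Ocln-KO. The Ocln-KO libraries lay on both sides of the WT libraries, and the means of 80.3 ± 8.95 and 77.7 ± 21.5 (SD, n = 3 each) differed by less than the spread within Ocln-KO. Pla2g7 made up between 41.4% and 69.4% of the sum, and its lowest and highest libraries were also those with the lowest and highest sum. Pla2g12a made up 31.2%, 31.9% and 39.1% of the sum in WT and 34.5%, 19.0% and 13.3% in Ocln-KO. Its share in Ocln-KO replicate 1 was within the WT range, and Pla2g7 was at its lowest in that library. Pla2g4a took 3.78 ± 0.166% of the sum in WT and 7.35 ± 2.09% in Ocln-KO (SD, n = 3 each), with no overlap. The ratio of Pla2g4a to Pla2g12a in CPM per kb was 0.115, 0.122 and 0.0985 in WT and 0.28, 0.295 and 0.512 in Ocln-KO, which restates the opposite changes of the 2 genes.

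**Figure D4:**
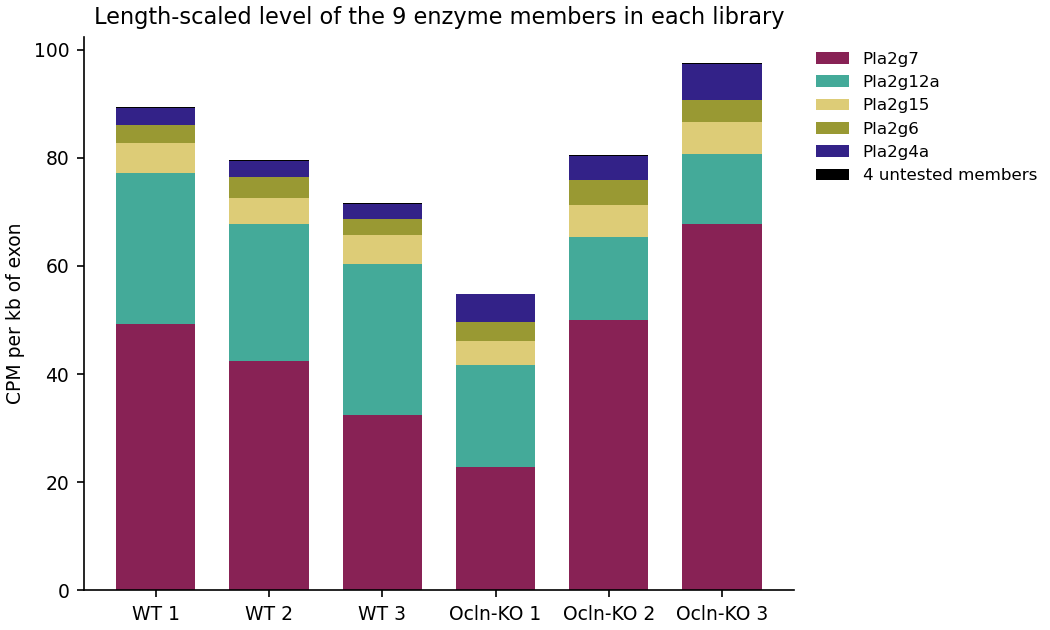
Stacked CPM per kb of exon of the 9 enzyme members in each library, with 1 bar per library from 0 and the 4 untested members summed in black. The bars reach 54.9 to 97.5, Pla2g7 is the largest part of every bar, and the Pla2g12a part shrinks from 25.4 to 28.0 in WT to 13.0 to 18.9 in Ocln-KO.

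Markers of cell types moved with the genotypes too, and their part in the differences above was not tested. All 6 markers of clear cells, the cells of the epididymis that acidify the lumen, were lower in every Ocln-KO library than in any WT library. Foxi1, Atp6v0d2, Atp6v0a4 and Atp6v1b1 passed the test. Over all genes tested, 19.4% were lower in every Ocln-KO library than in any WT library, and 5.04% passed as lower. The summed level of all 6 was 222, 188 and 267 CPM in WT, against 92.5, 105 and 58.8 CPM in Ocln-KO, beside Pla2g12a, whose Ocln-KO libraries lay at 69.7, 56.3 and 47.8 CPM. Car2, which did not pass, was the largest part of this sum in WT (137, 98.5 and 161 CPM) and was at 46.4, 62.7 and 5.89 CPM in Ocln-KO. The other 5 markers summed to 84.5, 89.5 and 106 CPM in WT and to 46.1, 42.1 and 52.9 CPM in Ocln-KO, so that the low sum of Ocln-KO replicate 3 came from Car2. The summed markers of principal cells, nearly all of it Crisp1 and Adam7, were 24620, 21010 and 21420 CPM in WT, against 15030, 18470 and 10850 CPM in Ocln-KO, with 0 of the 3 tested markers passing in edgeR's fit (1 lower at an unadjusted p under 0.05, and 1 after adjustment by DESeq2). General epithelial markers overlapped between genotypes (1387 to 1560 CPM in WT and 1092 to 1484 CPM in Ocln-KO), and 0 of 4 passed in edgeR's fit (1 lower at an unadjusted p under 0.05, and 0 after adjustment by DESeq2).

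Macrophage markers are given beside Pla2g4a and Pla2g7, which macrophages are known to express. All 9 had a log2 fold change above 0, with a median of 0.60, and 0 of 9 passed after adjustment in edgeR's fit (7 at an unadjusted p under 0.05, and 5 after adjustment by DESeq2). Their summed level was 126, 115 and 119 CPM in WT, against 129, 190 and 242 CPM in Ocln-KO. Over the 3 Ocln-KO libraries Pla2g7 (66.1, 145 and 197 CPM) had the same order as these markers, and so had the summed fibroblast and endothelial markers and the first principal component. In WT the order of Pla2g7 (142.9, 123 and 94.3 CPM) was not that of the macrophage markers. An order over 3 libraries carries little weight, and it was not tested. Pla2g4a in Ocln-KO replicate 1 was at 33.9 CPM, above all WT libraries, while the macrophage markers of that library (129 CPM) were close to the highest WT library (126 CPM). That sum is mostly Csf1r and the C1q genes, and 4 of the 9 markers (C1qb, Cx3cr1, Cd68 and Fcgr1) were above every WT library in all 3 Ocln-KO libraries, replicate 1 included. The 7 fibroblast markers summed to 2506, 2580 and 2748 CPM in WT, against 1969, 2724 and 5464 CPM in Ocln-KO, with 0 of 7 past the adjusted threshold in edgeR's fit (2 higher at an unadjusted p under 0.05, and 0 after adjustment by DESeq2). The Ocln-KO library with the highest fibroblast sum also had the highest Pla2r1 of its group (20.4 CPM), and that level lay under all WT libraries.

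**Figure D5:**
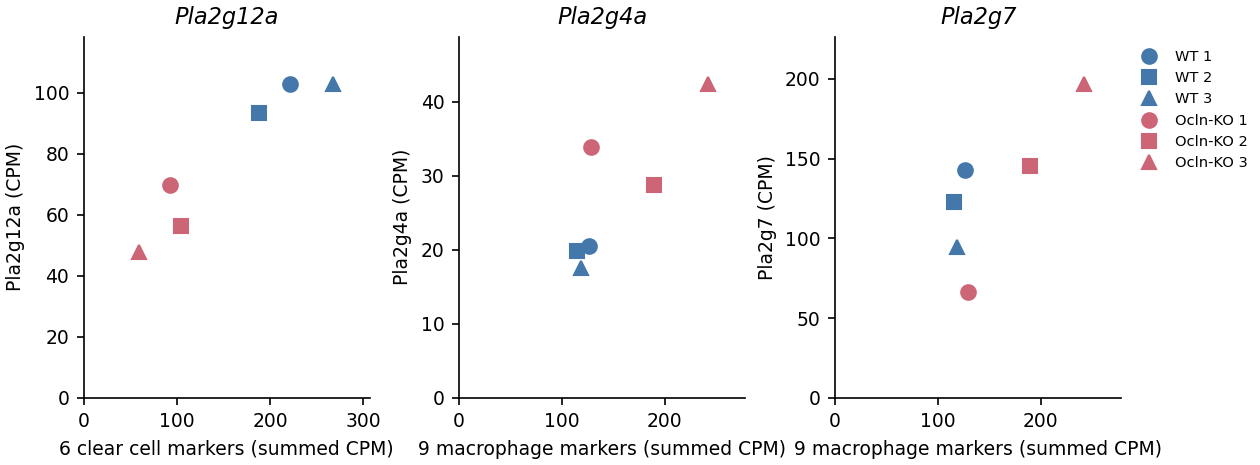
Level (CPM) of Pla2g12a against the summed CPM of 6 clear cell markers, and of Pla2g4a and Pla2g7 against the summed CPM of 9 macrophage markers, with 1 point per library (WT blue, Ocln-KO red). Pla2g12a and the clear cell sum are both lower in all 3 Ocln-KO libraries, and Pla2g7 spans 66.1 to 197 CPM over Ocln-KO libraries whose macrophage sum spans 129 to 242 CPM.

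Around the members, 7 lists of the same pathway were described. They held 80 genes, of which 68 were tested, 4 (5.88%) rose and 7 (10.3%) fell, beside 3.91% and 5.04% of all genes tested. The lists were chosen with earlier results of these data known, so the gap between these shares is not read as a result. Of 21 other enzymes with phospholipase A2 or related activity, 14 were tested (median log2 fold change -0.11). Prdx6, a peroxiredoxin that also has phospholipase A2 activity, fell from 570 ± 15.4 to 408 ± 13.5 CPM (mean ± SD of 3 libraries, as for the values that follow; log2 fold change -0.48), and Pnpla2, the adipose triglyceride lipase, fell from 63.6 ± 5.01 to 48.8 ± 1.97 CPM (-0.38). Pla2g16, a small acyltransferase and phospholipase, rose from 7.17 ± 2.26 to 14.2 ± 2.67 CPM (0.99). The adjusted p-values were 0.0226, 0.0433 and 0.0489 (quasi-likelihood test of edgeR, Benjamini-Hochberg adjustment). Among those that did not pass, the calcium-independent enzyme Pnpla8 had the highest mean in WT, with 152 ± 10.6 CPM in WT, against 123 ± 9.75 CPM in Ocln-KO (-0.30, adjusted p = 0.0905 in the same edgeR test), and Pafah1b2, a subunit of an intracellular platelet-activating factor hydrolase, had the highest in Ocln-KO (130 ± 3.88 CPM, from 147 ± 7.6 CPM in WT). The secreted enzymes Pla2g2a, Pla2g2e and Pla2g2f had no count in any library.

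The 9 genes of proteins that regulate these enzymes, annexins, S100a10, Plaa and MAP kinases, were all tested and 0 passed in edgeR's test, also at an unadjusted p under 0.05, and 0 in DESeq2. Their log2 fold changes ran from -0.21 for Anxa2, the most abundant, to 0.25. Of the 3 relatives of the receptor, all tested, Ly75, an endocytic lectin, rose from 2.17 ± 0.149 to 4.03 ± 0.24 CPM (log2 fold change 0.90, adjusted p = 0.0464, quasi-likelihood test of edgeR, Benjamini-Hochberg adjustment). Mrc1, the mannose receptor itself, had a log2 fold change of 0.26 and Mrc2 one of 0.28, and neither passed.

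Of 10 genes that activate fatty acids or reattach them to lysophospholipids, all were tested. Mboat2, an acyltransferase and the most abundant of them in WT, fell from 543 ± 43.6 to 312 ± 38.1 CPM (log2 fold change -0.80), and Lpcat2, which also makes platelet-activating factor, rose from 2.45 ± 0.471 to 5.92 ± 2.15 CPM (1.28). Their adjusted p-values were 0.0149 and 0.0445 (quasi-likelihood test of edgeR, Benjamini-Hochberg adjustment). Acsl4, the acyl-CoA synthetase that prefers arachidonic acid, was at 515 ± 11.1 CPM in WT, against 466 ± 10.1 CPM in Ocln-KO and did not pass. Of 9 genes that make or convert lysophospholipids or cleave their products, 2 fell and 0 rose in edgeR's fit (1 higher at an unadjusted p under 0.05, and 0 after adjustment by DESeq2). Enpp2, the secreted enzyme autotaxin that makes lysophosphatidic acid, measured 283, 243 and 270 CPM in WT, against 67.3, 61.4 and 30.7 CPM in Ocln-KO (log2 fold change -2.32 ± 0.27 SE, adjusted p = 0.00863, quasi-likelihood test of edgeR, Benjamini-Hochberg adjustment). Gde1, a glycerophosphodiesterase, fell from 67.8 ± 6.82 to 45.5 ± 4.14 CPM (-0.58, adjusted p = 0.0266 in the same edgeR test), and Lyplal1, the most abundant that did not pass, had a log2 fold change of -0.28.

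Of 21 genes of arachidonic acid conversion, 17 were tested, 1 rose and 2 fell. Ptgds, the lipocalin-type prostaglandin D synthase, measured 712, 632 and 770 CPM in WT, against 198, 373 and 233 CPM in Ocln-KO. Ptgs2, the inducible cyclooxygenase, measured 10.2, 10.6 and 9.45 CPM in WT, against 16.5, 18.6 and 19.5 CPM in Ocln-KO, so it was higher in every Ocln-KO library. In this list 5 genes lay above all WT libraries in every Ocln-KO library, and 4 lay below. Over all genes tested the shares were 16.9% and 19.4%. Hpgd, which inactivates prostaglandins, fell from 101 ± 5.07 to 72.3 ± 8.43 CPM. The log2 fold changes were -1.40, 0.85 and -0.48, with adjusted p-values of 0.0201, 0.0164 and 0.0359 (quasi-likelihood test of edgeR, Benjamini-Hochberg adjustment). Of those that did not pass, Ptges, a prostaglandin E synthase, had the highest mean in WT and Ptgs1, the constitutive cyclooxygenase, the highest in Ocln-KO. Ptges was at 189 ± 34.7 CPM in WT, against 171 ± 26.8 CPM in Ocln-KO, and Ptgs1 was at 181 ± 4.73 CPM and 211 ± 57.6 CPM. Of 7 receptors for lysophosphatidic acid and platelet-activating factor, 6 were tested and 0 passed after adjustment in edgeR's fit (2 at an unadjusted p under 0.05, and 0 after adjustment by DESeq2). All 6 had log2 fold changes above 0, between 0.15 and 0.66, and Lpar1 was the most abundant (0.17). Leaving out any 1 library lost at least the call of Ly75 in these lists, the arachidonic acid list had 1 higher and 2 lower also without Ocln-KO replicate 1 or 3, and without WT replicate 1 only 4 genes of the whole table rose and 19 fell after adjustment.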

How the data were processed

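Total RNA from the whole epididymis was depleted of ribosomal RNA per the methods (the series' design text speaks of mRNA) and sequenced from directional libraries, 3 WT and 3 Ocln-KO. The authors aligned reads with HISAT2 (version 2.0.4 per the submitters' processing notes) to GRCm38 and counted them per gene with HTSeq, and the deposited values are raw whole-number counts. The counting settings for strand and for reads that match several genes are not given in the sources used here. The labels' extraction protocol names prefrontal cortex, while the tissue label is whole epididymis.

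Samples were grouped by genotype. Counts were filtered with filterByExpr and scaled with TMM in edgeR 4.0.16 (limma 3.58.1, R 4.3.3), which left 19691 of 57127 genes, and genotypes were compared by the two-sided quasi-likelihood test with p adjusted by Benjamini-Hochberg over the tested genes and a threshold of 0.05. DESeq2 1.42.0, limma-voom, other scalings and filters, a replicate block and leaving out each library were alternatives. On simulated counts the edgeR step recovered 87% of 200 genes changed 4-fold, with 22 false calls among 19320 genes. The false calls made up a larger share of all calls than the threshold of 0.05. With 3 libraries against 3, the smallest two-sided p of an exact permutation test is 0.1, so no such test was used. Exon lengths came from GENCODE M21 and coordinates and upstream sequences from RefSeq (GRCm38.p6). Members and lists were chosen with earlier results of these data known. Named were all members, Ocln, each pathway gene past the threshold, the most abundant gene of each pathway list that was not (by mean CPM in WT, with the leader in Ocln-KO added after its values were seen where it differed), and at most 3 markers per cell type (further clear cell, macrophage and principal cell markers were named after their values were seen). Protein sequences were not used here.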

Additional observations from a re-analysis of the deposited data

How the results depend on the processing

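Pla2r1, Pla2g12a and Pla2g4a kept their direction in all 14 alternatives and passed the threshold under DESeq2, limma-voom, every other scaling and both other filters. With a replicate block their log2 fold changes were -1.06, -0.80 and 0.84 and none passed (adjusted p = 0.0627, 0.0766 and 0.0857 in edgeR's fit), leaving 0 members higher and 0 lower. The block called 10 genes higher and 31 lower over the whole table. The methods name 3 pairs of mice, and whether the replicate numbers follow such pairs is not given. Deviations of same-numbered libraries correlated at -0.05, -0.03 and 0, and those of differently numbered libraries at -0.08 to 0.13. These values, over all genes and from 3 libraries per genotype, cannot decide whether the numbers pair the samples. Over the 6 fits that left out 1 library, Pla2r1 ran from -1.15 to -0.93, Pla2g12a ran from -0.93 to -0.67, Pla2g4a ran from 0.70 to 0.98, Pla2g7 ran from -0.18 to 0.52, Pla2g15 ran from -0.03 to 0.19, members higher ran from 0 to 1 and members lower from 0 to 2. Pla2g7 turned to -0.18 without Ocln-KO replicate 3, and Pla2g15 to -0.0044, -0.02 and -0.03 without WT replicate 2, Ocln-KO replicate 2 and Ocln-KO replicate 3. The all-gene counts (770 higher, 992 lower) were 1604 and 1708 by DESeq2 and 1175 and 674 with total counts only. Without WT replicate 1, 2 or 3 they were 4 and 19, 85 and 145, and 16 and 40, and without Ocln-KO replicate 2 they were 220 and 342. The causes were not tested. The 4 members with few counts could not be compared at this depth.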

Other observations

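Markers of further cell types were summed in each library as values that enter no comparison of the members. Lymphocyte markers summed to between 3.18 and 3.43 CPM in WT and between 8.41 and 11.7 CPM in Ocln-KO, and Jchain, the joining chain of secreted antibodies, was the only one of 4 tested to pass (1.31 ± 0.273 CPM in WT, against 5.83 ± 1.45 CPM in Ocln-KO, SD, n = 3 each). Of the neutrophil and mast cell markers only Cpa3, a mast cell protease, had enough counts to be tested, and it rose from 0.377 ± 0.24 to 2.25 ± 0.82 CPM. Smooth muscle markers summed to between 1183 and 1429 CPM in WT and between 1616 and 2187 CPM in Ocln-KO, with 2 of 6 higher, Myh11 among them (494 ± 82.1 and 840 ± 121 CPM). Basal cell markers summed to between 235 and 247 CPM in WT and between 243 and 287 CPM in Ocln-KO, with 1 of 6 higher. Of 5 endothelial, 4 tested adipocyte and 6 sperm markers, 0 passed after adjustment in edgeR's fit (1, 2 and 0 at an unadjusted p under 0.05, and 0 in each list after adjustment by DESeq2). The 4 tested adipocyte markers all had log2 fold changes below 0 (median -2.05), at low counts. Adipocyte markers summed to 2.91, 5.01 and 2.91 CPM in WT, against 2.12, 0.659 and 0.0888 CPM in Ocln-KO. Sperm markers summed to between 190 and 253 CPM in WT, to 254 and 270 CPM in Ocln-KO replicates 1 and 2 and to 64.2 CPM in Ocln-KO replicate 3, the library that stood apart on the first principal component.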
